A study of Mus musculus with 12 samples.

Results

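The genes described here are 8 transcripts by which B lymphocytes are commonly recognised, read on arrays of mouse white adipose tissue. They are Ms4a1, Cd79a, Cd79b, Ighm and Jchain, whose expression is largely restricted to the B lineage, and Cd22, Cd37 and Blnk, which myeloid cells such as macrophages also use. Each gene was represented by the row of the deposited table annotated with its symbol alone, and by the row with the highest mean over the 12 arrays where several rows existed. All 8 were measured, out of 19937 genes in the series. Ighm had 3 rows and the other 7 genes had 1 row each.

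The tissue came from male mice aged 18 weeks, either wild type (WT) or labelled as a knockout of Ahnak (KO), a gene for a giant scaffold protein at the cell membrane. Both genotypes received either chow or a diet high in fat (HFD), made up of 20% protein, 20% carbohydrate and 60% fat, and the feeding groups, matched for weight, were kept on their diets for 12 weeks. Each pairing of genotype and diet is a group of 3 arrays, 4 groups in all. The sources used here name neither the strain, the way the allele was made, the cells in which it acts nor the fat depot. No label says that the numbered replicates came from separate animals, so p-values measure the spread between these samples only. Values are log2 intensities, on which a difference of 1 is a 2-fold change, and ± after a difference is the standard error of the fit with n = 3 arrays a group. For each gene the fit uses the same estimate of spread for all 4 groups. A widely spread group thus also widens the error of comparisons without it, and the error can understate the spread of that group. Tests are two-sided moderated tests from limma, and a gene was called changed where its p, adjusted by Benjamini-Hochberg over all 19937 genes, was under 0.05.

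B cells recognise antigen through a membrane immunoglobulin that is held in a complex with the signalling pair CD79A and CD79B. The kinase SYK is recruited to that pair and, with the adaptor BLNK, passes the signal to BTK and phospholipase C gamma 2, while CD22 restrains it. In adipose tissue B cells lie among the stromal cells and in lymphoid clusters, and plasma cells secrete antibody there. Macrophages share SYK, BLNK, BTK and much of the same cascade and use it downstream of other receptors.

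Ahnak was lower on all 6 KO arrays than on all WT arrays of the same diet, with a difference of -0.69 ± 0.13 on chow (adjusted p = 0.38) and a fall of 0.52 ± 0.13 on HFD (adjusted p = 0.021). The Ahnak row still read 9.27 to 9.58 on the KO arrays, against 9.68 to 10.3 on the WT arrays. Whether its probes lie in the deleted part is not known here, so the row is a limited check of the labels. Adipoq, the adipocyte hormone adiponectin, lay between 12.4 and 13.3 on every array. Arrays of one group correlated at r = 0.985 to 0.996 across genes, which are not independent replicates. The WT arrays on HFD were the most spread, and replicate 1 stood apart from replicates 2 and 3. The summed intensity of 20 macrophage markers was 32728 on replicate 1, 71392 on replicate 2 and 53950 on replicate 3. It lay between 15400 and 22476 on the other 9 arrays. In bulk tissue, fewer cells of a type cannot be told apart from less RNA in each of them. The table holds no detection calls, so a low value could not be set against background. Ms4a1, Cd79a, Ighm and Cd22 had means under the median of all row means, 5.85. Ms4a1 and Blnk lie on chromosome 19, as does Ahnak itself, with 45 protein-coding genes between Ahnak and Ms4a1 in the RefSeq table.

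**Figure D1:**
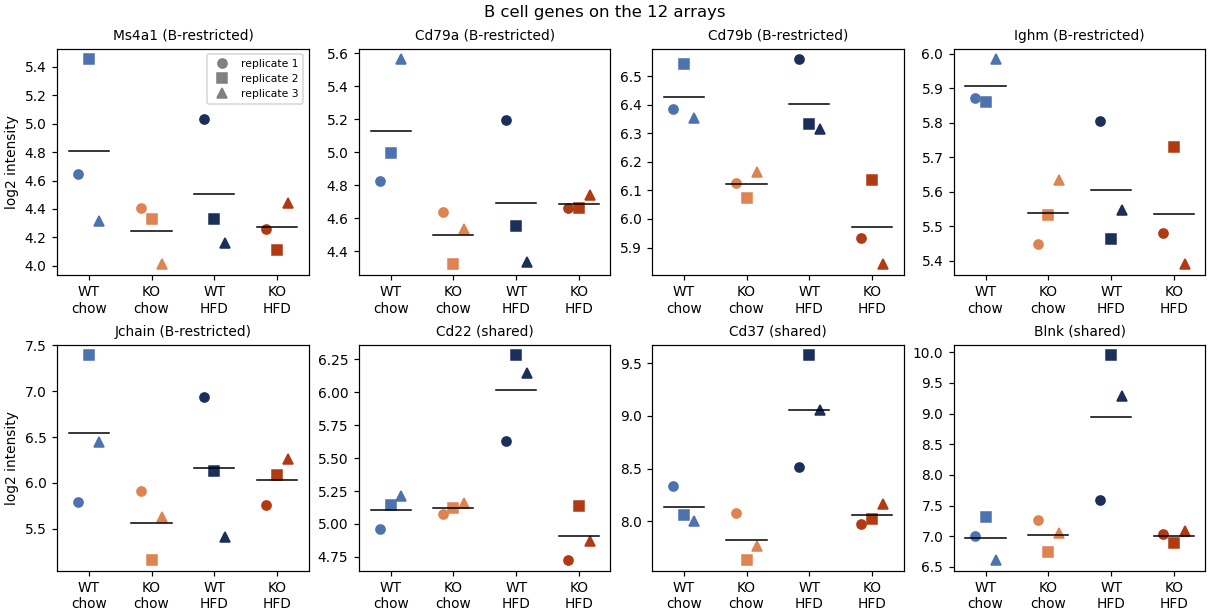
Log2 intensity of the 8 B cell genes on each of the 12 arrays, by group (x axis), with a symbol for each replicate number and a bar at the group mean; each panel has its own y axis. For Cd22, Cd37 and Blnk the WT arrays on HFD lay above all KO arrays on HFD, while Cd79b was lower on all 6 KO arrays than on all 6 WT arrays.

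KO and WT mice on chow were compared to see the effect of the knockout without the dietary load. All 5 B-restricted genes had a lower mean in KO, by 0.30 to 0.97 on the log2 scale, while Cd22 and Blnk lay within 0.05 of WT. None of the differences passed: limma called 0 of the 8 genes, and 0% of all genes, although 4 of the 8 had an unadjusted p under 0.05 (5.6% of all genes). The median difference of the 5 was -0.56, against 0.01 over all genes. For 3 of the 5 every KO array lay under every WT array, where 5.74% of all genes had that pattern.

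Ighm, the constant region of the mu heavy chain of IgM, read 5.87, 5.86 and 5.98 on the WT chow arrays and 5.45, 5.53 and 5.63 on the KO chow arrays. The groups did not overlap, and the difference was -0.37 ± 0.11 (adjusted p = 0.73). Its second row repeated this, with -0.29 ± 0.10, whereas the third, with a mean of 3.39, showed 0.01 ± 0.12. Cd79a, which encodes CD79A, read 4.82, 4.997 and 5.57 in WT and 4.64, 4.32 and 4.53 in KO, without overlap (-0.63 ± 0.22, adjusted p = 0.78). Cd79b, its partner in the complex, read 6.38, 6.54 and 6.35 in WT and 6.13, 6.08 and 6.17 in KO (-0.30 ± 0.10, adjusted p = 0.74). The WT and KO arrays were separated for this gene as well.

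Jchain, the joining chain of secreted IgM and IgA, had the largest difference and the widest spread of the B-restricted genes on chow. Its WT arrays read 5.79, 7.39 and 6.44 and its KO arrays 5.91, 5.16 and 5.63, so that the groups overlapped (-0.97 ± 0.42, adjusted p = 0.89). Ms4a1, which encodes the B cell surface protein CD20, read 4.65, 5.45 and 4.32 in WT and 4.40, 4.33 and 4.01 in KO (-0.56 ± 0.28, adjusted p = 0.90). Both genes were highest on WT chow replicate 2, and without that array their differences were -0.55 for Jchain and -0.23 for Ms4a1. The 95% intervals, which are not adjusted for the number of genes, reached from -1.17 to 0.06 for Ms4a1 and from -1.89 to -0.05 for Jchain. At 3 arrays a group a level 2-fold lower in KO was thus not excluded for either gene.

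None of the genes shared with myeloid cells separated KO from WT on chow, and the classes were not tested against each other. Cd22, an inhibitory lectin of B cells, read 4.96, 5.15 and 5.21 in WT and 5.08, 5.12 and 5.16 in KO (0.01 ± 0.16). Blnk had 0.05 ± 0.45, with values of 6.61 to 7.31 in WT and 6.74 to 7.27 in KO. Cd37, a tetraspanin of leukocytes, had -0.31 ± 0.22, as large as the difference of Cd79b, and overlapping arrays (adjusted p = 0.96). The sign of the Cd22 and Blnk differences turned when single chow arrays were left out.

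Antibody and plasma cell genes outside the 8 were read on chow as well. All 8 immunoglobulin kappa variable genes with a row of their own, a family added after the values had been seen, had a lower mean in KO, where 46.4% of all genes did, and the median difference was -0.52. The 3 with an unadjusted p under 0.05 had -2.08 ± 0.81, -1.40 ± 0.48 and -0.55 ± 0.24, and none of the 8 passed (adjusted p = 0.78 to 0.89 for these 3). Of 11 plasma cell genes 0 passed, 7 were below 0, and 2 had an unadjusted p under 0.05, in opposite directions. Mzb1, a chaperone of antibody secretion, had -0.31 ± 0.11 with overlapping arrays, and Xbp1, a transcription factor of secretory cells, had 0.28 ± 0.11 with every KO array above every WT array. Arrays were separated for 0 of the 11 with KO lower, where 5.74% of all genes were. They were separated for 2 of the 11 with KO higher, for which no share over all genes is given here. Igha, the alpha heavy chain, had -0.70 ± 0.35 and overlapping arrays. Of 16 other B cell genes 0 passed, 0 had an unadjusted p under 0.05, and the median was -0.11. Blk, a B cell kinase, had the smallest p with -0.28 ± 0.14, and Pax5, the transcription factor that fixes B cell identity, had -0.11 ± 0.09.

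Cxcl13, the chemokine that draws B cells into follicles and clusters, read 7.65, 8.32 and 7.26 in WT and 6.78, 5.64 and 6.73 in KO on chow. The groups were separated, and the difference was -1.36 ± 0.72 (adjusted p = 0.91). Tnfsf13b, which encodes the survival factor BAFF, had -0.04 ± 0.11. Of the 9 ligands and chemokines measured, none passed on chow and none had an unadjusted p under 0.05. Lymph node genes (0 of 7 passed, median -0.07) and T cell genes (0 of 13, median -0.02) were measured beside them; Ccr7, the homing receptor of lymphocytes, had -0.37 ± 0.12. Macrophage markers were on the same side as the B-restricted genes on chow. Of 20 markers 0 passed, 2 had an unadjusted p under 0.05 and 18 were below 0, where 46.4% of all genes were. For 7 every KO array lay under every WT array (5.74% of all genes), and the median was -0.25. Mmp12, a macrophage protease, had -1.48 ± 0.47 (adjusted p = 0.74). Of 14 receptor signalling genes 0 passed on chow and 12 were below 0, with a median of -0.19. The part of macrophages, or of a lymph node or lymphoid cluster in the tissue pieces, in the chow differences was not tested.

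**Figure D2:**
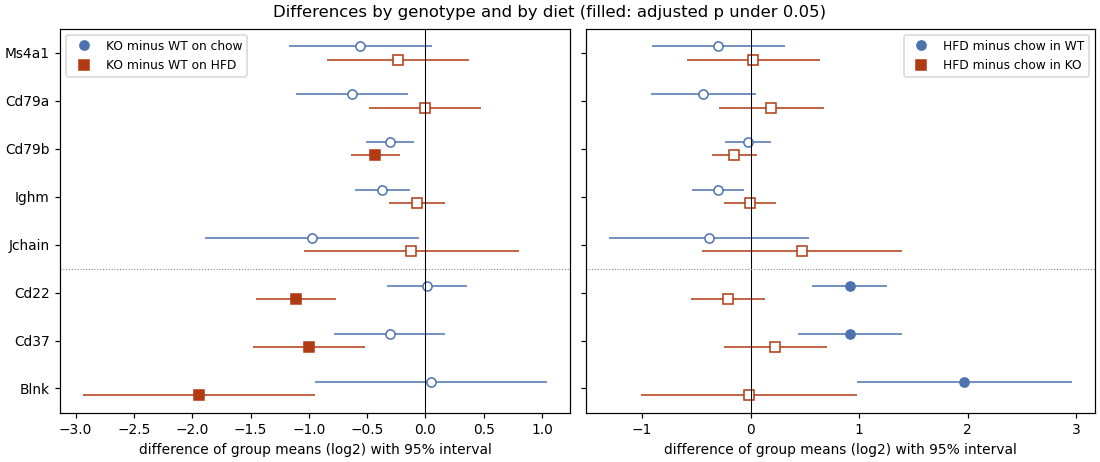
Difference between group means in log2 units (x axis) with 95% intervals for each of the 8 genes, KO minus WT in the left panel and HFD minus chow in the right, with B-restricted genes above the dotted line. Filled symbols passed at an adjusted p under 0.05: Cd79b, Cd22, Cd37 and Blnk for KO minus WT on HFD, and Cd22, Cd37 and Blnk for HFD minus chow in WT.

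On HFD the calls fell mostly among the genes shared with myeloid cells. Cd22, Cd37 and Blnk were all lower in KO than in WT, by about 2-fold for Cd22 (2.16) and Cd37 (1.996) and 3.84-fold for Blnk, and all 3 passed. Of the 5 B-restricted genes 1 fell, Cd79b by 1.35-fold, and 4 did not pass. Among all genes 6.85% were called lower in this comparison and 6.65% higher. All 8 differences were below 0, as were 45.7% of those of all genes. The median difference was -1.11 for the shared genes, -0.12 for the B-restricted genes and 0.02 over all genes.

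Promoters of the shared genes are shown because the 3 moved together, with that of Cd79a as the B-restricted counterpart. RefSeq windows on GRCm38.p6 were matched for 5 of the 8 genes (Cd79a, Jchain, Cd22, Cd37 and Blnk). Each line gives the 250 bases before the annotated start, 5′ to 3′ on the gene's strand, in lower case. Capitals mark matches on either strand to the octamer ATGCAAAT, the PU.1 core AGGAAGT, the EBF motif (TCCC and GGGA with any 2 bases between them) or the E2A E-box CAGGTG.
Blnk (chr19:40994222-40994471, - strand): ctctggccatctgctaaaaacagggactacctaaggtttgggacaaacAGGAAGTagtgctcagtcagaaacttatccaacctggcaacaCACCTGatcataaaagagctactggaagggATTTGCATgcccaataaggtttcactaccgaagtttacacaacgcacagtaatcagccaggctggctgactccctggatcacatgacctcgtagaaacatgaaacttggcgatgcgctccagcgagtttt
Cd37 (chr7:45238840-45239089, - strand): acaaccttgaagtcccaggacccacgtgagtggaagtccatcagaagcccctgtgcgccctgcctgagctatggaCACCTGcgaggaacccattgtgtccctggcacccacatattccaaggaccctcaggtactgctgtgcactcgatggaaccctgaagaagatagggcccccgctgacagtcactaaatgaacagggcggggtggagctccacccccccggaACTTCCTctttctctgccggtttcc
Cd22 (chr7:30879029-30879278, - strand): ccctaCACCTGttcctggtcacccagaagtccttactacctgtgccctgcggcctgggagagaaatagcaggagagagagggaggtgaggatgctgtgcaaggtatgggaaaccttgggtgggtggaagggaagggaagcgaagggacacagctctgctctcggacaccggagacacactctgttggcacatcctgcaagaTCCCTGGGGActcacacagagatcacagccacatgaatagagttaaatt
Cd79a (chr7:24897247-24897496, + strand): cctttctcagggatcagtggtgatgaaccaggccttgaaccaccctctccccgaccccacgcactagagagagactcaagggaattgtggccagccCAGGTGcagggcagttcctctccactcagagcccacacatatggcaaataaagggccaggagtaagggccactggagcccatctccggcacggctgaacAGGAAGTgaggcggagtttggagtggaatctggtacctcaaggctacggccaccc

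PU.1 is a transcription factor of myeloid and B cells, EBF and E2A act in B cell development, and the octamer is bound by factors of the POU family. Blnk and Cd37 held the PU.1 core, as did Cd79a, where 7.69% of 32851 windows of the same length hold it. Blnk alone of the 5 held the octamer (1.6% of windows) and Cd22 alone the EBF motif (0.779%), whose match reads the same motif on both strands. The E2A E-box was present in 4 of the 5, and in 17.2% of all windows. Jchain matched none of the motifs in this window. A match describes letters in the window and not a bound site, and the motifs did not divide the shared genes from Cd79a.

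Blnk, the adaptor that links SYK to phospholipase C gamma 2, read 7.59, 9.95 and 9.29 on WT HFD replicates 1 to 3 and 7.04, 6.89 and 7.08 on the KO HFD arrays. The groups did not overlap, and the WT arrays were far more spread than the KO arrays; the gene fell by 1.94 ± 0.45 (adjusted p = 0.019). Cd37 read 8.52, 9.58 and 9.06 in WT and 7.98, 8.02 and 8.17 in KO, and fell by 0.997 ± 0.22 (adjusted p = 0.014). Cd22 read 5.63, 6.28 and 6.14 in WT and 4.72, 5.14 and 4.87 in KO, and fell by 1.11 ± 0.16 (adjusted p = 0.0044). On WT HFD replicate 1 all 3 genes were lowest of their group, and on replicate 2 highest. Of the 4 calls on HFD, that of Cd22 held without each array in turn. Blnk no longer passed when WT HFD replicate 2 (-1.44, adjusted p = 0.057) or 3 (-1.77, 0.074) or KO HFD replicate 1, 2 or 3 (adjusted p = 0.051 to 0.062) was left out, and neither did Cd37 without WT HFD replicate 3 (-0.99, 0.053) or KO HFD replicate 1 (-0.96, 0.059).

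Cd79b, a B-restricted gene, read 6.56, 6.33 and 6.31 in WT on HFD and 5.94, 6.14 and 5.84 in KO. It fell by 0.43 ± 0.10 (adjusted p = 0.015), a difference close to the -0.30 ± 0.10 on chow, and the interaction of genotype and diet was -0.13 ± 0.13 (adjusted p = 0.70). Its 6 KO arrays, at 5.84 to 6.17, lay under its 6 WT arrays, at 6.31 to 6.56. The HFD call was lost without KO HFD replicate 1 (-0.41, adjusted p = 0.061) or 3 (-0.37, 0.061). When the fit held the 6 compared arrays alone, none of the 4 genes passed (adjusted p = 0.057 to 0.094), at the same differences.

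The other B-restricted genes did not separate KO from WT on HFD. Cd79a read 5.20, 4.55 and 4.33 in WT and 4.66, 4.66 and 4.74 in KO (-0.004 ± 0.22, 95% interval -0.49 to 0.48). Ighm read 5.81, 5.46 and 5.55 in WT and 5.48, 5.73 and 5.39 in KO (-0.07 ± 0.11, 95% interval -0.31 to 0.17). Jchain, with 6.94, 6.13 and 5.41 in WT against 5.76, 6.08 and 6.26 in KO, had -0.12 ± 0.42, and Ms4a1, with 5.04, 4.33 and 4.16 against 4.26, 4.11 and 4.44, had -0.24 ± 0.28. WT HFD replicate 1 was the highest WT array for all 5 B-restricted genes. Without it the differences were 0.25 for Cd79a, 0.03 for Ighm, 0.27 for Jchain and 0.03 for Ms4a1, so their sign turned, while Cd79b fell by 0.35 (adjusted p = 0.026).

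The class means differed in order on the WT HFD arrays. The mean of the 5 B-restricted genes was 5.91 on replicate 1, 5.36 on replicate 2 and 5.15 on replicate 3. The mean of the 3 shared genes was 7.25, 8.60 and 8.16 on the same arrays. The gap between the class means was 3.24 on replicate 2 and 3.01 on replicate 3. It was 1.34 on replicate 1 and 0.79 to 1.503 on the 9 arrays of the other groups.

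Most macrophage markers moved with the shared genes. For KO against WT on HFD 18 of 20 were below 0, where 45.7% of all genes were. The 2 above 0 were Mertk (0.29 ± 0.17) and Cd163 (0.28 ± 0.22), and neither passed. In this comparison 15 of the 20 fell and 5 did not pass, with a median of -0.98, where 6.85% of all genes were called lower. The mean log2 intensity of the 20 was 10.2, 11.3 and 10.8 on WT HFD replicates 1 to 3. It was 9.28 to 9.43 on the KO HFD arrays. Itgax, an integrin subunit of inflammatory macrophages and dendritic cells, read 8.96, 11.3 and 10.6 in WT, in the order of Blnk, Cd37 and Cd22. It read 6.20 to 6.99 in KO on HFD and 5.83 to 6.74 on chow. No marker of the list read 0 on any array, since no value of the table is 0. The part of macrophage RNA in the fall of Cd22, Cd37 and Blnk was not tested.

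**Figure D3:**
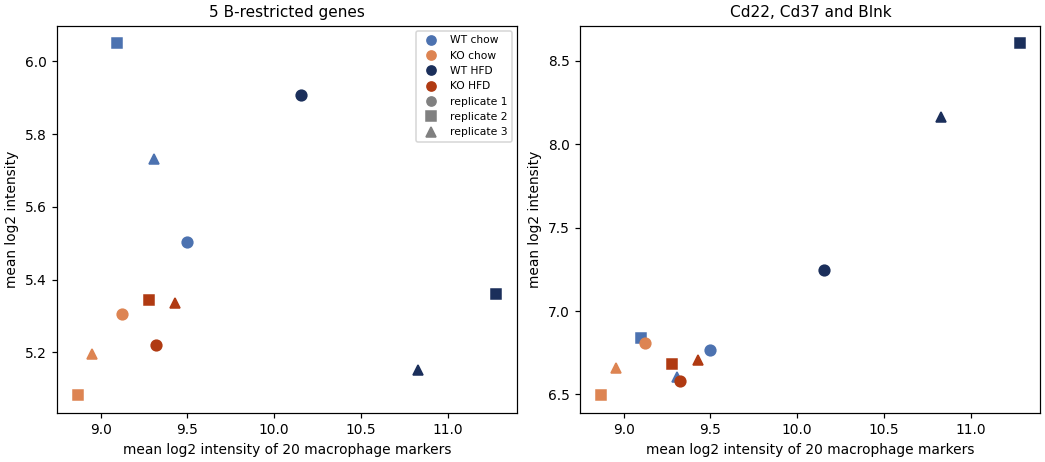
Mean log2 intensity of the 5 B-restricted genes (left) and of Cd22, Cd37 and Blnk (right) against that of 20 macrophage markers, 1 point per array, with colour for group and shape for replicate number. In the right panel WT HFD replicates 2 and 3 are at the upper end on both axes (8.60 and 8.16 for the shared genes). In the left panel those arrays read 5.36 and 5.15, where the KO arrays ran from 5.08 to 5.34.

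The signalling cascade below the B cell receptor followed the shared genes. Of 14 receptor signalling genes 12 fell in KO on HFD, where 6.85% of all genes were called lower. None rose and 2 did not pass, with a median of -0.98 against 0.02 over all genes. Syk, the kinase at the head of the cascade, read 8.42, 9.86 and 9.42 in WT and 7.87, 7.91 and 8.17 in KO and fell by 1.25 ± 0.27. Btk, the kinase that activates phospholipase C, read 7.08, 8.32 and 7.94 in WT and 6.29, 6.53 and 6.57 in KO and fell by 1.32 ± 0.25 (adjusted p = 0.0085). Plcg2, that phospholipase, fell by 0.78 ± 0.12 (0.0053), Vav1, an exchange factor, by 1.48 ± 0.25 (0.0065), and Ptpn6, the phosphatase SHP-1 recruited by CD22, by 0.98 ± 0.18 (0.0082). Cd81 (0.05 ± 0.08), a tetraspanin, and Malt1 (-0.27 ± 0.13) did not pass. These genes are expressed in macrophages too, so the list is no measure of B cells. The count was 6 when either WT HFD replicate 3 or KO HFD replicate 1 was left out, and 0 when the fit held the 6 compared arrays alone.

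Of 16 other B cell genes 2 fell in KO on HFD, where 6.85% of all genes were called lower. Both are known from myeloid cells as well. Cd180, a relative of the Toll-like receptors, had -2.48 ± 0.36 (adjusted p = 0.0049). Cd72, a lectin that binds SHP-1, had -2.31 ± 0.65 (0.039). Cd180 read 8.05, 9.80 and 9.52 in WT and 6.59, 6.63 and 6.72 in KO, and Cd72 read 6.28, 9.94 and 8.31 in WT and 6.10, 5.87 and 5.62 in KO. The count was 2 without WT HFD replicate 1, 1 without any other single array, 0 when the fit held the 6 compared arrays alone and 7 with array weights. The other 14 did not pass, with a range of -0.22 to 0.96; the highest was Cd24a, which is also an adipocyte progenitor marker. Pax5 had 0.18 ± 0.09, Bank1, a scaffold of B cell signalling, 0.28 ± 0.15 and Cr2, a complement receptor, 0.07 ± 0.08.

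Of 11 plasma cell genes 1 fell in KO on HFD, where 6.85% of all genes were called lower. In a list this short 1 called gene is close to that share. Sdc1, the syndecan used to sort plasma cells and also made by other cells, fell by 1.39 ± 0.30 (adjusted p = 0.014). It read 7.96, 9.59 and 9.10 in WT and 7.41, 7.61 and 7.47 in KO, again in the order of Itgax among the WT arrays, and its call was lost without WT HFD replicate 3 or KO HFD replicate 1. The plasma cell count was 3 without WT HFD replicate 1, 0 when the fit held the 6 compared arrays alone and 5 with array weights. Mzb1 had -0.12 ± 0.11 and Igha -0.09 ± 0.35. The 8 kappa variable genes had a median of 0.12, with 3 below 0, where 45.7% of all genes were. Of 9 ligands and chemokines 1 fell, Tgfb1 by 0.81 ± 0.17, and Cxcl13 had -0.77 ± 0.72 with WT values of 8.77, 6.37 and 5.15 that ran in the order of Ms4a1 and Jchain.

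**Figure D4:**
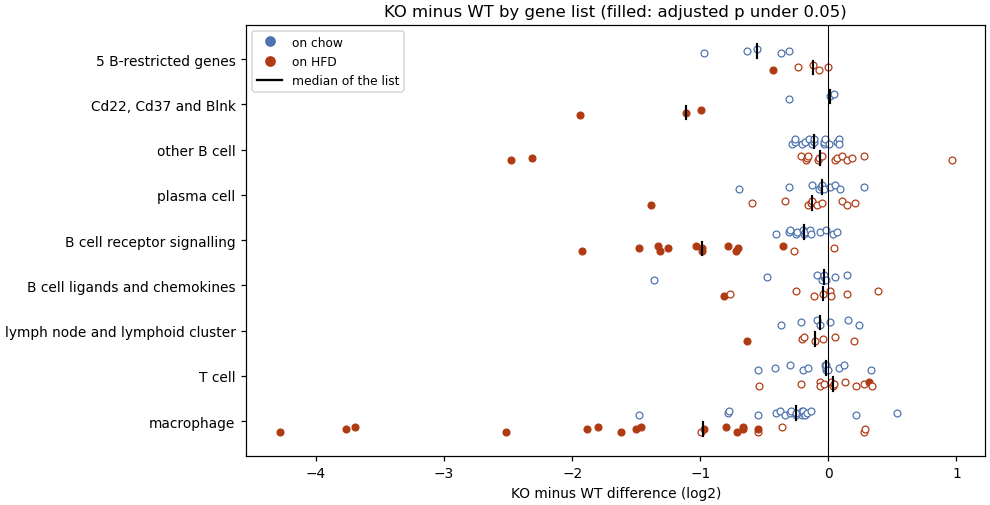
KO minus WT difference on the log2 scale (x axis) of every measured gene of 9 lists (rows), on chow in blue and on HFD in red, with a black bar at each list's median and filled circles for an adjusted p under 0.05. On HFD the medians were -0.98 for receptor signalling and for macrophage genes, -1.11 for Cd22, Cd37 and Blnk, and -0.12 for the 5 B-restricted genes.

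Diet moved the shared genes in WT. Cd22 rose by 0.91 ± 0.16 (adjusted p = 0.0027), Cd37 by 0.92 ± 0.22 (0.011) and Blnk by 1.97 ± 0.45 (0.0097) on HFD against chow, where 11.8% of all genes were called higher and 12.3% lower. The WT HFD arrays lay above the WT chow arrays for all 3, a pattern whose share over all genes is not given here. Those HFD arrays are the ones that also enter the comparison with KO. When the fit held the WT arrays alone Cd22 passed, and Cd37 (adjusted p = 0.053) and Blnk (0.059) did not. Of the receptor signalling genes 13 of 14 rose with diet in WT, among them Plcg2 by 0.97 ± 0.12 and Malt1 by 0.94 ± 0.13, and 17 of 20 macrophage markers rose.

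All 5 B-restricted genes had a mean lower on HFD than on chow in WT, as had 55.7% of all genes, and none passed. Ighm had -0.30 ± 0.11 (adjusted p = 0.067), with WT HFD arrays at 5.46 to 5.81 under the WT chow arrays at 5.86 to 5.98. Cd79a had -0.44 ± 0.22 (adjusted p = 0.18), Jchain -0.38 ± 0.42, Ms4a1 -0.30 ± 0.28 and Cd79b -0.02 ± 0.10. Without WT HFD replicate 1, Ighm (-0.40, adjusted p = 0.017) and Cd79a (-0.69, 0.019) passed. Among other genes of the lineage, Pou2af1, a B cell coactivator, fell by 0.43 ± 0.12, and Tnfrsf13c, the receptor of BAFF, by 0.37 ± 0.11. Mzb1 fell by 0.43 ± 0.11 and Cd24a by 1.59 ± 0.38, while Igha had -1.05 ± 0.35. Other called genes of these lists went the other way. Cd180 rose by 2.31 ± 0.36 and Cd72 by 2.21 ± 0.65. Of the plasma cell list Sdc1 rose by 1.27 ± 0.30, Prdm1 by 0.78 ± 0.22 and Fkbp11 by 0.43 ± 0.12. The counts were 5 of 16 other B cell genes (2 rose, 3 fell) and 4 of 11 plasma cell genes (3 rose, 1 fell). They were 2 and 1 without WT chow replicate 3, and the first was also 2 without WT HFD replicate 2 or 3. They were 3 and 0 when the fit held the WT arrays alone, and 11 and 9 with array weights.

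In KO, limma called 0 of the 8 genes for HFD against chow, 0 had an unadjusted p under 0.05 (22.8% of all genes), and 6.34% of all genes passed, 2.8% higher and 3.54% lower. Blnk had -0.02 ± 0.45, Cd37 0.23 ± 0.22 and Cd22 -0.21 ± 0.16. The B-restricted differences ran from -0.15 for Cd79b to 0.47 for Jchain. Among other B cell genes Pou2af1 fell in KO as well, by 0.44 ± 0.12 (adjusted p = 0.049), beside its fall of 0.43 in WT, and it was the 1 of 16 that passed. Malt1 was the 1 receptor signalling gene of 14 that rose (0.64 ± 0.13), and 1 of 20 macrophage markers rose.

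Whether the genotype difference itself depended on diet was tested by the interaction. No gene of the 8 passed, 3 had an unadjusted p under 0.05 (17.5% of all genes), and 0.00502% of all genes passed. The difference on HFD minus that on chow was -1.12 ± 0.22 for Cd22 (adjusted p = 0.073), -1.99 ± 0.64 for Blnk (0.15) and -0.69 ± 0.31 for Cd37 (0.28). It was 0.63 ± 0.31 for Cd79a (0.33), 0.85 ± 0.59 for Jchain (0.51), 0.32 ± 0.39 for Ms4a1 (0.75) and 0.30 ± 0.15 for Ighm (0.35). Without WT HFD replicate 1, the array with the lowest macrophage sum of its group, 4 of the 8 passed: Cd22 (-1.32, adjusted p = 0.0011), Blnk (-2.66, 0.0009), Cd37 (-0.96, 0.025) and Cd79a (0.88, 0.048). With all 12 arrays and array weights in the fit 3 passed: Cd22 (-1.29, adjusted p = 0.0034), Blnk (-2.30, 0.0061) and Cd79a (0.89, 0.041). Whether the interaction passed for these genes thus depended on how the arrays were weighted.

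Across the 4 groups the B-restricted genes shared the top of their order. For all 5, WT on chow had the highest mean and WT on HFD the second, above both KO groups. The second place rested on WT HFD replicate 1 for Ms4a1, Cd79a, Ighm and Jchain. Without that array KO lay above WT on HFD for these genes. With all arrays the Cd79a difference on HFD was -0.004. The WT groups read 4.81 ± 0.59 and 4.51 ± 0.46 (SD, n = 3) for Ms4a1, 5.13 ± 0.39 and 4.69 ± 0.45 for Cd79a, and 6.54 ± 0.81 and 6.16 ± 0.77 for Jchain. The KO groups on chow and HFD read 4.25 ± 0.21 and 4.27 ± 0.17 for Ms4a1, 4.497 ± 0.16 and 4.69 ± 0.05 for Cd79a, and 5.57 ± 0.38 and 6.04 ± 0.25 for Jchain. For these 3 genes the arrays of neighbours in the order overlapped, except between the KO groups for Cd79a. There every HFD array lay above every chow array, with a difference of 0.19 ± 0.22 that did not pass. Cd22, Cd37 and Blnk were highest in WT on HFD, at 6.02 ± 0.35, 9.05 ± 0.53 and 8.94 ± 1.22, and the other 3 groups lay within 0.21, 0.31 and 0.05 of each other.

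The genes whose values over the 12 arrays were most like those of each member, by Pearson correlation among 17154 genes, are given as a description. Blnk was closest to Sh3bp2, an adaptor of SYK signalling (r = 0.996), H2az1 (0.991), Creg1 (0.990), Nceh1, a cholesteryl ester hydrolase of macrophages (0.990), and B4galt5 (0.989). Cd37 was closest to Apobec1 (0.996), Ptpn6 (0.987), Fyb, an adaptor of leukocytes (0.987), Lyz2, the lysozyme of myeloid cells (0.987), and Lgmn, a lysosomal protease (0.986). Cd22 was closest to Cdt1, which licenses DNA replication (0.974), Aph1c (0.973), Brca1 (0.971), Tmem9b (0.968) and Irf8, a transcription factor of myeloid and B cells (0.965). These values share the separation of the WT HFD arrays from the rest.

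For the B-restricted genes the likeness was lower. Cd79a was closest to Klhl29 (0.924), a kappa variable gene (0.899), Grasp (0.890), Med13 (0.883) and Xpo4 (0.866). Jchain was closest to a kappa variable gene (0.866), Smarcc1 (0.856), Cd5l, a macrophage protein that binds IgM (0.845), Rbm15 (0.818) and Dstn (0.815). Ms4a1 had Cd2ap (0.858), Ahdc1 (0.837), G3bp1 (0.808), Cxcl13 (0.806) and Rasl10a (0.801). Cd79b had Kcnmb4os1 (0.873), Fosl2 (0.869), Tmem132d (0.867), Lfng (0.847) and Rev3l (0.841), and Ighm had Insl6 (0.880), Ddit4 (0.851), Nkx2-9 (0.844), Sptb (0.843) and Hal (0.841). An antibody gene was among the 5 nearest for Cd79a and Jchain, and the chemokine of B cells for Ms4a1. The 5 nearest of Cd79b and of Ighm held no antibody gene and no gene of the lists. The other nearest genes of Cd79a, Jchain and Ms4a1 belong to none of the lists used here either.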

How the data were processed

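Total RNA of white adipose tissue was labelled with biotin and read on 12 Affymetrix whole-transcript arrays of 1 colour. The authors deposited 1 table of log2 intensities with 34760 rows. Per the submitters' processing notes the tool was affy, without a version; no source used here states how background was corrected or how probes were summarized and normalized. The base of the log was inferred from the highest value, 14.2. Array medians lay between 5.78 and 5.92.

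Rows were named through GEO's platform annotation, which can be old: 21640 have 1 symbol, 1321 several and 11799 none. The row with the highest mean stood for a gene with several rows, which gave 19937 genes. No filter was applied. With limma 3.58.1 (R 4.3.3), group means were estimated from all 12 arrays together, with 8 residual degrees of freedom and moderated by eBayes, which was also tested on simulated data. The number of arrays limits the precision. Of the table's columns of per-sample values all were used.

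The 8 genes and all lists were chosen with earlier results of these data known. Genes named outside the 8 are the list members with the smallest p in each comparison, beside others named after their values were seen, and the 5 genes nearest to each member in pattern. Of the listed genes, those without a row of their own (such as Igkc and Lyn) were not analysed here. Promoter sequences are from RefSeq, GRCm38.p6. Alternatives were the samples in the fit, array scaling, a filter on low rows, the row of a gene, the variance model, array weights, a block and each array left out.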

Additional observations from a re-analysis of the deposited data

How the results depend on the processing

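The counts of 0 of the 8 genes for KO against WT on chow and for HFD against chow in KO were the same under every alternative run. A count that stays at 0 says nothing about the stability of the differences. Among all genes 0% passed in the first of these comparisons and 6.34% in the second. For KO against WT on HFD the count of 4 was 0 when the compared groups alone were fitted and 1 to 4 with each array left out. For HFD against chow in WT the count of 3 was 1 with only the compared groups, 7 with array weights and 3 to 5 with each array left out. For the interaction the count of 0 was 3 with array weights and 0 to 4 with each array left out. With the filter on low rows Ms4a1, Cd79a, Ighm and Cd22 were not tested.

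Signs turned for small differences. Under quantile normalization Cd79a had 0.010 for KO against WT on HFD, Cd79b 0.071 for diet in WT, and Ighm 0.13 and Blnk 0.027 for diet in KO; with arrays centred on their median these were 0.0020, 0.041, 0.068 and 0.056. With array weights Ms4a1 had 0.13, Cd79a 0.35 and Jchain 0.64 for KO against WT on HFD. With each array left out, KO against WT on HFD ran from -0.41 to 0.028 for Ms4a1, -0.18 to 0.25 for Cd79a, -0.17 to 0.029 for Ighm and -0.497 to 0.27 for Jchain, and on chow from -0.061 to 0.066 for Cd22 and -0.14 to 0.21 for Blnk. Diet in WT ran from -0.56 to 0.026 for Ms4a1, -0.10 to 0.034 for Cd79b and -0.77 to 0.043 for Jchain, diet in KO from -0.094 to 0.104 for Ms4a1, -0.102 to 0.068 for Ighm and -0.16 to 0.11 for Blnk, and the Ms4a1 interaction from -0.0021 to 0.59. The causes were not tested.

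No pairing of the samples by replicate number was seen: 4 of 18 same-numbered pairs correlated above 0.1, with a range of -0.41 to 0.38. With 3 arrays a group this check cannot exclude a pairing. With the replicate number as a block the counts of the 8 genes were 0, 4, 3, 0 and 0 in the order KO against WT on chow and HFD, diet in WT and KO, and interaction. List counts, an alternative chosen after seeing the data, were 11 to 18 for macrophage genes with each array left out for KO against WT on HFD, and 0 with only the compared groups. The number of arrays limits precision.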

Other observations

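Outside the B lineage, other cell types of the tissue gave the following values for KO against WT on HFD (limma, n = 3 arrays a group, adjusted p), where 6.85% of all genes were called lower and 6.65% higher, so that 1 called gene in a short list is close to that background. Of 20 macrophage markers Mmp12, a secreted protease, had the largest change and fell by 4.28 ± 0.47 (0.0032). Of 9 dendritic cell genes Flt3, a growth factor receptor, fell by 0.83 ± 0.15 (0.0082) and Itgae, an integrin chain, rose by 0.69 ± 0.12 (0.0078). Of 10 granulocyte and mast cell genes S100a8, a neutrophil protein, fell by 1.18 ± 0.16 (0.0044) and Cma1, a mast cell protease, rose by 0.48 ± 0.14 (0.047). The other 8 did not pass, among them S100a9 (-0.14 ± 0.10), Ly6g (-0.07 ± 0.11) and Mpo (0.03 ± 0.11), which are also neutrophil genes. Among adipocyte genes Cebpa rose by 0.69 ± 0.13 (0.0082), Plin1, a lipid droplet protein, by 0.52 ± 0.10 (0.0091) and Lipe, a lipase, by 0.49 ± 0.12 (0.026), while Lep, the hormone leptin, fell by 0.48 ± 0.12 (0.029). Of 13 T cell genes 1 rose, Skap1 by 0.32 ± 0.07 (0.018), and of 7 lymph node genes 1 fell, Ccl19 by 0.64 ± 0.17 (0.029).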
